A study of Mus musculus with 6 samples.

Results

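Facilitative glucose transporters of the SLC2 family were followed in HL-1 cells, a cardiomyocyte line from a mouse atrial tumour, kept at low or normal oxygen. The members were Slc2a1, Slc2a3, Slc2a4, Slc2a6, Slc2a8, Slc2a9, Slc2a10 and Slc2a12, and every probe set that the platform annotation gives to one of these symbols was taken. This gave 17 probe sets for 8 genes, out of 45037 probe sets on the array and 18193 genes with a probe set of their own. In the hypoxia group (3 arrays) the confluent cultures spent 8 hours at 1% oxygen, and in the normoxia group (3 arrays) the same time at 21%, with no other agent named in the labels. HL-1 cells descend from a tumour that arose in mice expressing a viral large T antigen under the atrial natriuretic factor promoter, so both groups are one immortalised line that divides in culture. The glucose and insulin content of the medium is not given in the labels. The labels do not say that the 3 arrays of a group came from separate cultures, so p-values measure the spread between these arrays, which may be technical.

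Proteins of this family carry hexoses across membranes down the concentration gradient, without using energy. In heart muscle, GLUT1 (Slc2a1) sits largely at the cell surface and serves basal uptake, while GLUT4 (Slc2a4) is held in internal vesicles and moves to the surface after insulin or contraction. Slc2a1 is a textbook target of the hypoxia-inducible factors (HIF), which bind the core letters ACGTG or GCGTG in DNA.

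Summed signals of the atrial markers were high on all 6 arrays, and none of the marker lists held a gene that passed the test. All 8 atrial markers lay above the filter on low signals, with summed signals of 29474 to 32082 in hypoxia and 29664 to 31518 in normoxia. They ran from Myl7, with mean signals of 8687 in hypoxia and 8653 in normoxia, down to Sln, with 93.1 and 51.9. Of markers of other cells, 2 of 6 fibroblast, 1 of 5 endothelial, 3 of 5 macrophage and 1 of 3 adipocyte genes lay above it. Their summed signals stayed between 10.9 and 146 on any array. Both erythroid markers on the array lay below it. Of 4 smooth muscle markers 3 lay above it, led by Acta2, with sums of 8513 to 10951 in hypoxia and 8552 to 10007 in normoxia, while the defining Myh11 had mean signals of 5.77 and 1.70. In RNA from whole cultures, fewer cells with a transcript and less transcript per cell cannot be told apart.

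Slc2a1 rose about 4-fold in hypoxia on each of its 3 probe sets, and it was the one member that passed the test. Slc2a3 had higher mean signals and Slc2a4 lower mean signals in hypoxia, but neither passed, and Slc2a8 had similar signals in both groups. The other 4 members lay below the filter on all their probe sets. Signals are MAS5 values on a linear scale with no unit; they compare arrays for 1 probe set and do not rank one transporter above another. The threshold for a call was an adjusted p of 0.05 in limma, fitted to all 22518 probe sets whose mean log2 signal was above the median, equal to a geometric mean of 14.1. Among the 4 members above the filter, 1 was called higher and 0 lower. Of all 11332 genes tested, 0.662% were called higher and 0.0882% lower. At the level of single probe sets, 3 of the 8 member probe sets above the filter were called higher, all of Slc2a1, against 0.533% of all those tested.

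Because Slc2a1 was the member that rose, the 250 bases before its start site are shown beside those of Slc2a8, which had similar signals in both groups. They come from RefSeq on GRCm38.p6, whose promoter table matched 6 of the 8 members; Slc2a3 and Slc2a4 were not among them. Each is written 5′ to 3′ on the strand of the gene, with ACGTG or GCGTG, or their reverse complements CACGT and CACGC, in capitals. The Slc2a1 stretch is chr4:119108495-119108744 (plus strand) and the Slc2a8 stretch is chr2:32982084-32982333 (minus strand).
Slc2a1: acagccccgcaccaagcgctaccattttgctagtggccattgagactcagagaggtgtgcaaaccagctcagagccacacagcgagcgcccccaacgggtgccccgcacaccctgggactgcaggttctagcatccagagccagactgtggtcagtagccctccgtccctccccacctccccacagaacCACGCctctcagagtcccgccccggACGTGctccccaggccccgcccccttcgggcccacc
Slc2a8: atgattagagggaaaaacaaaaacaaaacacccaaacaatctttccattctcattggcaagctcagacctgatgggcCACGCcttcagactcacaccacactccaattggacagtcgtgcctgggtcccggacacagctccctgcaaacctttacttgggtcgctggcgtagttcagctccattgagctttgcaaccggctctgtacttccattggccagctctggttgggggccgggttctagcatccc
Slc2a1 held 2 such cores, with first bases 61 and 36 bases before the start, and Slc2a8 held 1, at 173 bases. Both strands were searched and overlapping matches were allowed. Slc2a6 held 4 cores, and Slc2a9, Slc2a10 and Slc2a12 held 0. Of 32851 mouse promoters of the same length, 38.6% held at least 1 core and 16.7% held 2 or more. Sequence outside these 250 bases was not searched. Slc2a1 also held 2 GC boxes (GGGCGG), of which 32.7% of promoters held at least 1 and 16.7% held 2 or more. Slc2a8 held 4 CCAAT boxes, of which 33.8% of promoters held at least 1 and 10.1% held 2 or more. A match of letters is a description of the sequence, not of binding.

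GLUT1, the basal glucose transporter, is encoded by Slc2a1 (Entrez Gene 20525). On its brightest probe set, 1434773_a_at, which represents the gene, signals were 2624, 1978 and 2216 in hypoxia replicates 1 to 3 and 540, 603 and 470 in normoxia replicates 1 to 3. Every hypoxia array was thus more than 3 times as bright as every normoxia array. The group means were 2272 ± 326 and 538 ± 66.6 (mean ± SD of 3 arrays, here and below), a 4.22-fold rise (log2 fold change 2.08, SE 0.14, 95% interval 3.38-fold to 5.27-fold, adjusted p = 0.00038). Among the genes tested this was the rise ranked 21 by size and the change ranked 3 by p-value.

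The other 2 probe sets of Slc2a1 gave similar changes. On 1426599_a_at the signals were 1829, 1412 and 1450 in hypoxia and 305, 402 and 311 in normoxia, a 4.61-fold rise (95% interval 3.61-fold to 5.89-fold, adjusted p = 0.000411). On 1426600_at they were 1260, 1333 and 725 in hypoxia and 204, 321 and 295 in normoxia. The groups did not overlap on any of the 3 probe sets, although the hypoxia array of replicate 3 was clearly lower than the other two on this last one. Its rise was 3.98-fold (95% interval 2.70-fold to 5.87-fold, adjusted p = 0.00743). That call was lost without hypoxia replicate 1 (adjusted p = 0.0822) and with a variance model that ignores signal level (0.102); over all alternatives its adjusted p ranged from 0.000515 to 0.102.

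Relative to the normoxia mean of each probe set, hypoxia replicate 1 stood at 4.88, 5.39 and 4.61 times on the 3 probe sets. Hypoxia replicate 2 stood at 3.68, 4.16 and 4.88 times and hypoxia replicate 3 at 4.12, 4.27 and 2.65 times. The order of the 3 hypoxia arrays therefore differed between probe sets of the same gene. Probe sets of one gene share the RNA of each array and are not replicates of the condition.

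**Figure D1:**
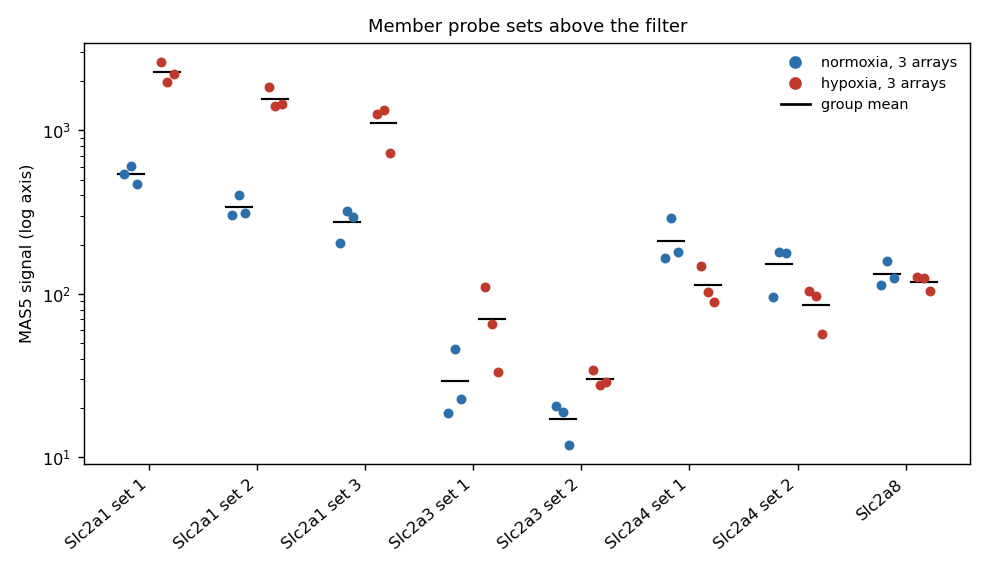
MAS5 signal (log axis, no unit) of the 8 member probe sets above the filter on each array, with normoxia in blue, hypoxia in red and a line at each group mean. All hypoxia arrays lie above all normoxia arrays for the 3 Slc2a1 probe sets, the Slc2a4 groups lie the other way or overlap, and levels cannot be compared between probe sets.

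GLUT3, a transporter with high affinity for glucose that is best known from neurons, is encoded by Slc2a3 (Entrez Gene 20527) and had 4 probe sets, 2 of them above the filter. On 1437052_s_at, which represents the gene, signals were 111, 65.7 and 33.1 in hypoxia and 18.8, 46.1 and 22.6 in normoxia. The hypoxia arrays spread widely, and the lowest of them lay below the highest normoxia array. The fold change was 2.31 (95% interval 1.12 to 4.74) and did not pass (adjusted p = 0.384 in limma). Its log2 fold change of 1.21 became 0.79 without hypoxia replicate 1, the brightest array.

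The second Slc2a3 probe set, 1455898_x_at, had signals of 34.3, 27.9 and 28.8 in hypoxia and 20.6, 19.0 and 11.9 in normoxia. Here the hypoxia arrays were close together and all above the normoxia arrays, with a fold change of 1.81 (95% interval 1.06 to 3.09, adjusted p = 0.409 in limma). The suffixes s_at and x_at mark probes that the array maker expected to match, or possibly to match, other transcripts as well. The remaining 2 probe sets, 1427770_a_at and 1421924_at, lay below the filter, with signals of 0.7 to 17.5 and 0.8 to 15.2 and overlapping groups.

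GLUT4, the insulin-responsive transporter of muscle and fat, is encoded by Slc2a4 (Entrez Gene 20528), and both of its probe sets were dimmer on average in hypoxia. On 1415958_at, which represents the gene, signals were 149, 103 and 89.0 in hypoxia and 166, 291 and 180 in normoxia. The groups did not overlap, but hypoxia replicate 1 and normoxia replicate 1 were close. Means were 114 ± 31.5 and 212 ± 68.5, a fold change of 0.540 (log2 fold change -0.89, SE 0.26, 95% interval of the fold 0.360 to 0.810), which missed the threshold (adjusted p = 0.231 in limma, 0.126 to 0.585 over all alternatives).

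On the second Slc2a4 probe set, 1415959_at, signals were 104, 96.9 and 56.7 in hypoxia and 95.2, 181 and 178 in normoxia. The groups overlapped, as normoxia replicate 1 was as low as the hypoxia arrays. The fold change was 0.572 (95% interval 0.356 to 0.921, adjusted p = 0.379 in limma). Among the 8 member probe sets above the filter, 5 had groups that did not overlap: the 3 of Slc2a1, the second of Slc2a3 and the first of Slc2a4. Over all 22518 probe sets above the filter the share was 16.5%.

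GLUT8, a transporter kept mainly in internal membranes, is encoded by Slc2a8 (Entrez Gene 56017) and had 1 probe set, 1450628_at. Its signals were 126, 126 and 104 in hypoxia and 113, 158 and 126 in normoxia. The groups overlapped and the means differed by less than the spread between normoxia arrays (119 ± 12.8 against 132 ± 23.3). The fold change was 0.902, with a 95% interval of 0.675 to 1.21 (adjusted p = 0.806 in limma), so a change of the size seen for Slc2a1 lies outside the interval.

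The 4 members below the filter on every probe set were Slc2a6, Slc2a9, Slc2a10 and Slc2a12. Over the 9 member probe sets below the filter, including those of Slc2a3, signals ran from 0.3 to 40.3. At such signals MAS5 values vary widely between arrays, and these members were not tested in the main fit. Values from a fit without the filter, given here, had adjusted p-values of at least 0.52 in limma.

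Slc2a9 encodes GLUT9, which carries urate as well as sugars. On 1440873_at its signals were 17.1, 40.3 and 18.5 in hypoxia and 5.0, 16.2 and 1.8 in normoxia. All hypoxia arrays were above all normoxia arrays, but normoxia replicate 2 came close to hypoxia replicate 1. The log2 fold change was 2.15 (95% interval 0.36 to 3.94, adjusted p = 0.52 in limma). On the other Slc2a9 probe set, 1426568_at, the log2 fold change was -0.52 (95% interval -3.03 to 1.99) with overlapping groups. Of the 9 member probe sets below the filter, 1440873_at was the 1 whose groups did not overlap; of all probe sets below the filter the share was 10.1%.

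Slc2a12 encodes GLUT12, which like GLUT4 responds to insulin. Its signals were 6.5, 7.6 and 18.1 in hypoxia and 4.4, 10.8 and 2.1 in normoxia on 1435911_s_at, and at most 9.0 on 1455501_at. The log2 fold changes of these 2 probe sets had opposite signs, 1.05 (95% interval -0.84 to 2.95) and -0.89 (95% interval -3.15 to 1.38). Slc2a10, whose product GLUT10 is known from arterial tortuosity syndrome, had signals of 4.2 to 23.7 on 1449477_s_at and 0.3 to 1.3 on 1419434_at. Its log2 fold changes were -0.89 (95% interval -2.52 to 0.73) and -0.26 (95% interval -2.01 to 1.48). Slc2a6, which encodes the lysosomal GLUT6, had signals of 0.8 to 9.4 on its 1 probe set, 1434015_at, with a log2 fold change of 0.39 (95% interval -2.12 to 2.90). For these 3 genes the groups overlapped on every probe set, and the intervals were too wide to tell a rise from a fall.

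**Figure D2:**
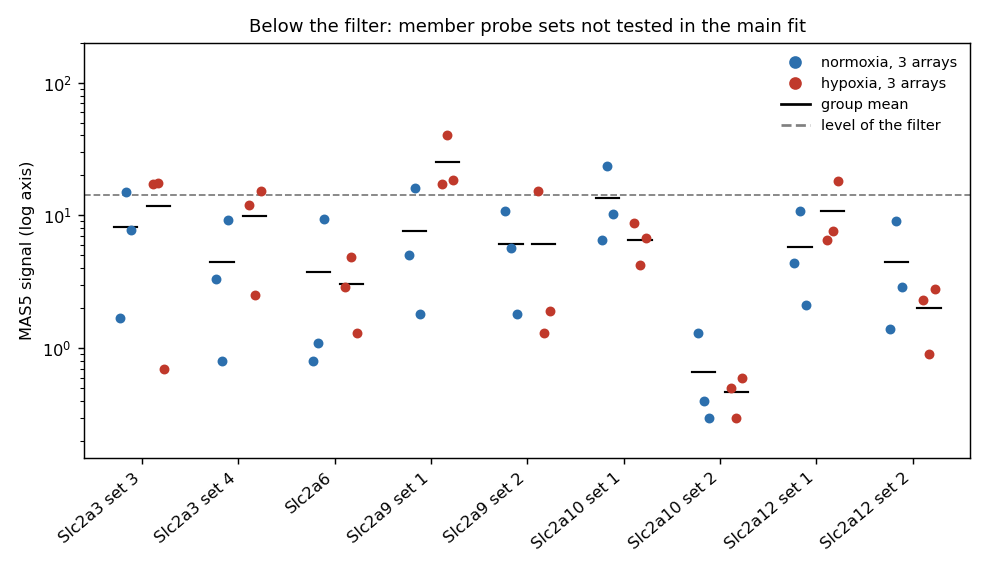
MAS5 signal (log axis, no unit) on each array of the 9 member probe sets below the filter, with the level of the filter, 14.1, as a dashed line. Normoxia and hypoxia arrays overlap for all but the first Slc2a9 probe set.

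**Figure D3:**
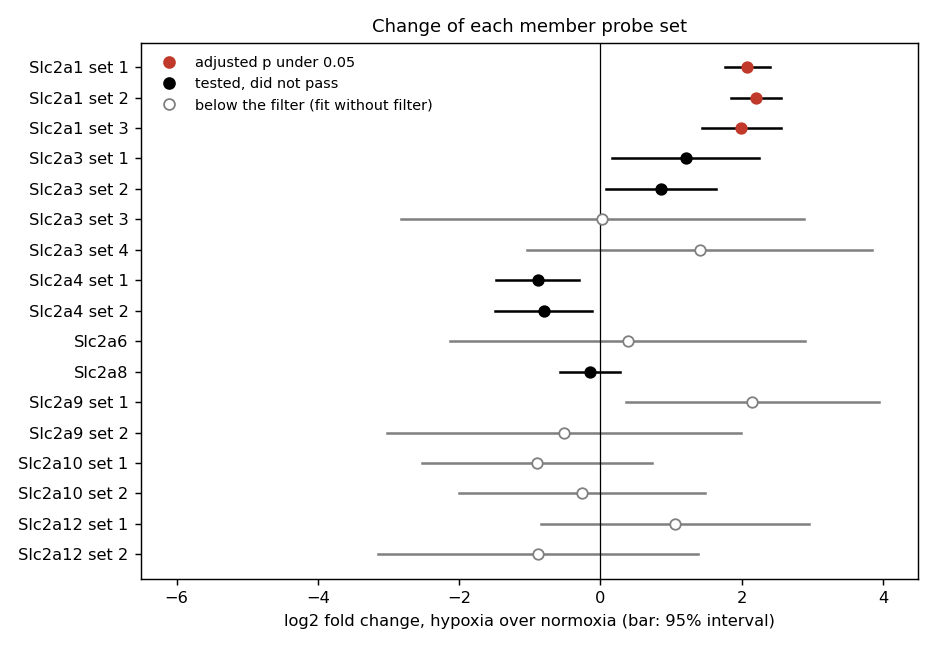
The log2 fold change, hypoxia over normoxia, of all 17 member probe sets with its 95% interval from limma; open circles are probe sets below the filter, from the fit without the filter. The 3 Slc2a1 probe sets lie between 1.99 and 2.21 with short intervals, and the intervals of most probe sets below the filter cross 0.

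Whether Slc2a1 changed by more than the other members was asked with ratios within each array, in which the scaling of the array cancels. Each ratio was expressed on the log2 scale relative to its normoxia mean, so that it shows unequal change and not relative level. Exact permutation tests of 3 against 3 arrays, two-sided, cannot give a p below 0.1, and 3 ratios were tested. All 3 ratios share the Slc2a1 signals, whose groups were already known to be far apart on these arrays. The tests are therefore not independent of each other or of that rise.

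The ratio of Slc2a1 to Slc2a4 was 2.75, 2.88 and 3.26 above its normoxia mean on hypoxia replicates 1 to 3, against -0.33 to 0.32 on the normoxia arrays. The groups were far apart, with a mean change of 2.96, or 7.81-fold (exact p = 0.1, the smallest possible; adjusted p = 0.15). The ratio of Slc2a1 to Slc2a8 was 2.35, 1.95 and 2.38 above its normoxia mean, against -0.13 to 0.23 (mean change 2.23, or 4.68-fold, exact p = 0.1, the smallest possible; adjusted p = 0.15). Both changes were several times the spread between arrays of a group.

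For Slc2a3 the answer depended on the probe sets used. With the representative probe sets, the ratio of Slc2a1 to Slc2a3 was 0.25, 0.60 and 1.75 above its normoxia mean in hypoxia and between -0.60 and 0.53 in normoxia, with overlapping groups (mean change 0.87, exact permutation p = 0.2, adjusted p = 0.2). The mean change was 0.43 without hypoxia replicate 3 and 0.57 without normoxia replicate 2. With the mean log2 signal of all kept probe sets of each gene, the groups did not overlap. The ratio then stood 0.78 to 1.32 above its normoxia mean in hypoxia and between -0.25 and 0.32 in normoxia (mean change 1.06, exact permutation p = 0.1, the smallest possible; adjusted p = 0.1).

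**Figure D4:**
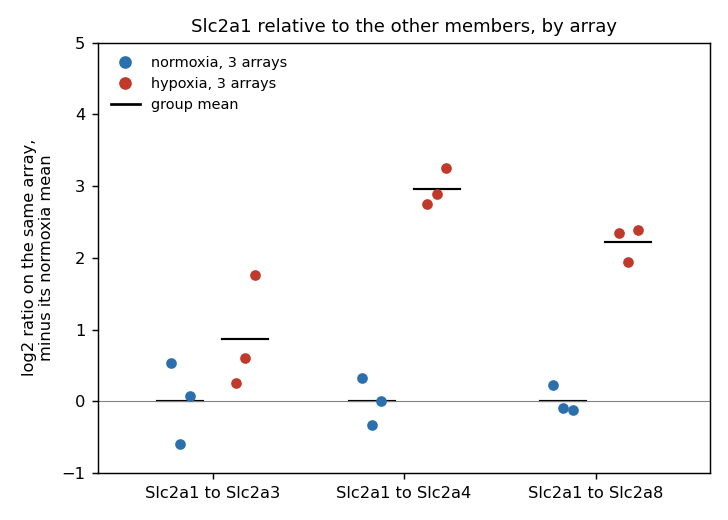
Log2 ratio of the Slc2a1 signal to that of Slc2a3, Slc2a4 or Slc2a8 on the same array, minus the normoxia mean of that ratio, for 3 normoxia (blue) and 3 hypoxia (red) arrays with group means as lines. The hypoxia arrays stand 2.75 to 3.26 above for Slc2a4 and 1.95 to 2.38 above for Slc2a8, and overlap with normoxia for Slc2a3 on the representative probe sets shown.

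Genes whose change over the 6 arrays was most like that of Slc2a1 were found by the root mean square difference in log2 signal, after each gene was centred on its normoxia mean. The closest was Fam162a, which encodes a mitochondrial protein, at 0.14. It rose from 1381 ± 218 to 5995 ± 283 (log2 fold change 2.13, adjusted p = 0.00016 in limma). It was followed by the collagen prolyl hydroxylase subunit P4ha2 at 0.23, the lipoprotein receptor Vldlr at 0.24, the mitochondrial protein Higd1a at 0.31 and the anti-Müllerian hormone receptor Amhr2 at 0.33. These 4 rose by 2.04, 2.08, 1.65 and 2.52 on the log2 scale. With a variance model that ignores signal level, the calls of P4ha2 and Vldlr (adjusted p = 0.0673 for both) and of Higd1a (0.055) were lost. Since this likeness was sought among all genes on the same 6 arrays, it is a description.

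No measured gene in the lists of other genes of sugar uptake and its control passed the test. In the 5 lists of other genes, 0 of 56 measured genes were called higher or lower by limma. Of all 11332 genes tested, only 0.662% were called higher and 0.0882% lower, so 0 of 56 is near that share. An unadjusted limma p under 0.05 was found for 10 of the 56 genes and for 12.4% of all genes tested. Centring each array on its median moved the median log2 fold change of all genes by 0.11, from -0.04 to 0.07. The share of all genes tested that lay below 0 was 55.6% as deposited and 40.1% after median centring. Directions of small changes are therefore given under both scalings.

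Of the other SLC2 genes, 3 had a probe set and 1 lay above the filter. This was Slc2a5, the fructose transporter GLUT5, with signals of 17.2, 24.5 and 20.2 in hypoxia and 38.3, 13.2 and 29.4 in normoxia (log2 fold change -0.27, adjusted p = 0.858). The groups overlapped, and the sign turned without normoxia replicate 1 (0.05). The liver transporter Slc2a2 had signals of 0.6 to 6.3 and the inositol transporter Slc2a13 signals of 1.7 to 21.3, both with overlapping groups. Slc2a7 was not analysed here.

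Sodium-coupled and SWEET sugar transporters had 4 of 9 genes above the filter, all 4 below 0 under both scalings, with a median log2 fold change of -0.31. The brightest, the inositol carrier Slc5a3, had signals of 776 ± 149 in hypoxia and 918 ± 159 in normoxia (log2 fold change -0.25, adjusted p = 0.64). Slc5a10, named after its values were seen, had signals of 14.9 ± 3.62 and 32.5 ± 9.28, near the filter (log2 fold change -1.12, adjusted p = 0.29).

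Genes whose proteins move GLUT1 and GLUT4 to and from the surface had log2 fold changes of -0.40 to 0.33 on representative probe sets. Other kept probe sets reached 0.95 for Arrdc4 (adjusted p = 0.207 in limma) and -0.76 for Tbc1d1 (adjusted p = 0.444 in limma). The representative probe sets of Arrdc4 and Tbc1d1 gave -0.02 and -0.20. Of 21 measured genes, 9 were above 0 and 12 below, or 12 above and 9 below after median centring. Vps29, a retromer subunit, was the brightest, at 2442 ± 310 in hypoxia and 2052 ± 298 in normoxia (log2 fold change 0.25, adjusted p = 0.551). Txnip, an arrestin-like protein that promotes removal of GLUT1 from the surface, was named after its values were seen. Its signals were 1520, 1114 and 1232 in hypoxia and 1210, 864 and 1008 in normoxia (log2 fold change 0.33, 95% interval -0.03 to 0.69, adjusted p = 0.502), with overlapping groups. The other kept probe set of Txnip gave 0.51 (adjusted p = 0.379 in limma).

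In insulin and AMPK signalling, 4 of 14 measured genes were above 0 and 10 below, or 6 and 8 after median centring. Prkag2, a regulatory subunit of AMPK, was the brightest. Its signals were 727, 744 and 759 in hypoxia and 963, 945 and 922 in normoxia. The groups did not overlap, as for 16.5% of all probe sets above the filter, and each was tight. The log2 fold change of -0.34 did not pass (adjusted p = 0.272). Other kept probe sets of Prkag2 gave larger falls of -0.53 and -0.61 (adjusted p = 0.189 and 0.126 in limma). With the mean of all its kept probe sets the change was -0.50 (adjusted p = 0.0922 in limma). Pik3r1, a regulatory subunit of PI3 kinase named after its values were seen, had 201 ± 13.5 and 141 ± 6.83 (log2 fold change 0.51, adjusted p = 0.231). The other kept probe sets of Pik3r1 gave smaller log2 fold changes of 0.11, 0.15 and 0.27 (adjusted p = 0.915, 0.828 and 0.783 in limma).

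Transcription factors that act on GLUT genes had 13 of 16 measured genes below 0, or 11 of 16 after median centring, with medians of -0.26 and -0.15. Hif1a, the brightest, had signals of 1947 ± 134 and 2099 ± 266, with a log2 fold change of -0.10 (adjusted p = 0.789) that was 0.0082 after median centring. The muscle factors Mef2c and Mef2a, the coactivator Ppargc1a and Klf15, all known activators of Slc2a4, were named after their lower values in hypoxia were seen. Smaller changes in the same list were -0.21 for Mef2d, -0.18 for Thra and -0.19 for Srebf1 (adjusted p = 0.665, 0.755 and 0.891 in limma). Mef2c had signals of 342 ± 58.8 in hypoxia and 475 ± 28.4 in normoxia (log2 fold change -0.48, adjusted p = 0.281), and Mef2a 645 ± 84.9 and 817 ± 30.8 (-0.35, adjusted p = 0.375). Ppargc1a had 391 ± 104 and 532 ± 29.5 (-0.48, adjusted p = 0.397) and Klf15 14.0 ± 3.45 and 28.2 ± 13.2, near the filter (-0.94, adjusted p = 0.467). The hypoxia mean of Klf15, 14.0, lay below the filter level of 14.1, so Klf15 was kept only through its normoxia signals. Other kept probe sets gave -0.79 to -0.34 for Mef2a (lowest adjusted p = 0.113 in limma) and -0.53 to -0.13 for Mef2c (lowest 0.419). For Ppargc1a they gave -0.53 to -0.30 (lowest 0.207). None of these 4 genes passed the test, and any link between them and the Slc2a4 signals was not tested. Over all 16 measured genes of the list, log2 fold changes on representative probe sets ran from -0.94, for Klf15, to 0.07. On other kept probe sets they ran from -0.79 for Mef2a to 0.44 for Esrra (adjusted p = 0.205 and 0.749 in limma).

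**Figure D5:**
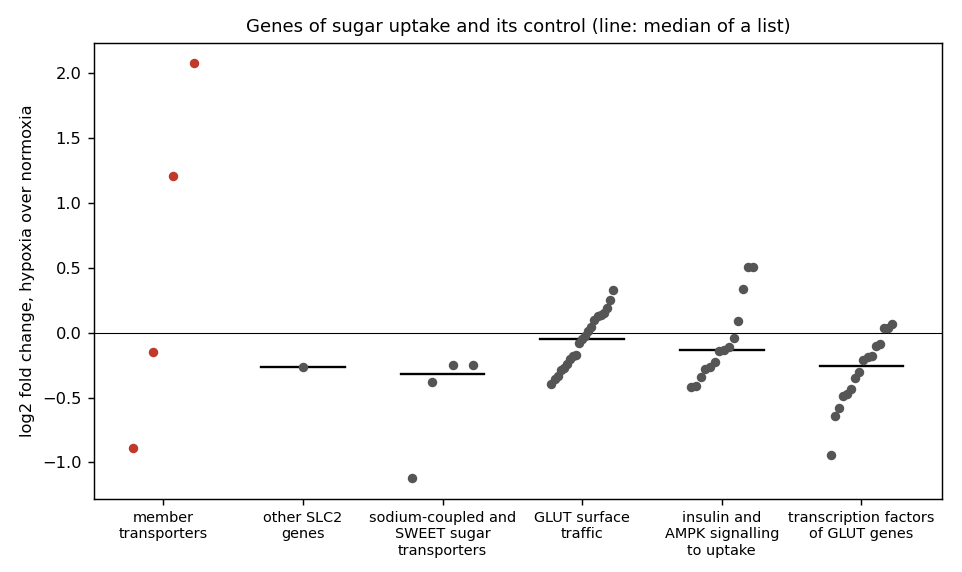
The log2 fold change, hypoxia over normoxia, of the 4 members above the filter (red) and of each measured gene in 5 lists of other genes of sugar uptake and its control (grey), with a line at the median of each list. Slc2a1, at 2.08, passed the test; none of the grey genes did, and median centring moves all genes up by about 0.11.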

How the data were processed

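Biotinylated cRNA from HL-1 cells was hybridised to 6 mouse arrays of Affymetrix, read in 1 colour. The deposited intensity values, 1 per probe set and array on a linear scale, were made with MAS5 per the submitters' processing notes (release not given in the sources used here). After trimming 2% off each end, the mean was 99.5 on all arrays, medians ran from 15.0 to 19.0, and no array pair was identical. The number of arrays limits the precision.

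From these values, 10 zeros were set to 0.1, log2 was taken, and probe sets above the median mean log2 signal were kept. limma 3.58.1 in R 4.3.3 compared hypoxia with normoxia (lmFit, eBayes with trend, two-sided), with Benjamini-Hochberg adjustment over 22518 probe sets, after tests on simulated data. Genes were named from a 2016 platform annotation (34945 probe sets with 1 symbol, 932 with several, 9160 with none) and represented by the kept probe set with the highest mean log2 signal. Named genes were all members, other SLC2 genes, up to 4 passing genes and the brightest non-passing gene of each list, and the 5 genes most like a called member. Members and lists were chosen with earlier results of these data known. Alternatives covered scaling, offset, filter, variance model, array weights, pairing, averaging of probe sets and leaving out each array.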

Additional observations from a re-analysis of the deposited data

How the results depend on the processing

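The 15 alternatives kept the calls of the members: 1 gene higher, Slc2a1, and 0 lower, and 0 genes of the 5 lists of other genes were called in the 14 run for those lists. The log2 fold change of Slc2a1 lay between 1.97 and 2.19 and its adjusted p between 3.25e-05 and 0.0375, the latter without a variance trend; leaving out 1 array gave 1.97 to 2.17. Slc2a4 stayed between -1.10 and -0.64 and Slc2a3 between 0.79 and 1.66, neither passing. The ratio of Slc2a1 to Slc2a3 ranged from 0.43 to 1.18, to Slc2a4 from 2.80 to 3.13 and to Slc2a8 from 2.15 to 2.37 with 1 array left out. With the mean of all kept probe sets of a gene, the ratio to Slc2a3 was 1.06 and its groups no longer overlapped (exact permutation p = 0.1, adjusted p = 0.1, against 0.2 with representative probe sets). The sign of Slc2a5 turned without normoxia replicate 1 (0.052; leaving out 1 array gave -0.72 to 0.05), and that of Hif1a after median centring (0.0082). Same-numbered arrays of the 2 groups did not consistently deviate together (correlations -0.08, 0.21 and -0.14). The replicate 2 arrays correlated best with each other, but not every array correlated best with its own number. The highest correlation, 0.32, was between hypoxia replicate 3 and normoxia replicate 1. With the replicate number as a block, the change of Slc2a1 was again 2.08 on the log2 scale (adjusted p = 0.000966 in limma). The count of members called stayed at 1. Members near background are limited by signal.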
